A study of Mus musculus with 15 samples.

Results

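The caveolae genes of the mouse, Cav1, Cav2, Cav3, Cavin1, Cavin2, Cavin3 and Ehd2, were followed across small intestinal organoids that carried SOX9 transgenes. The 7 genes were picked by symbol out of the 78298 genes counted, because Cav2 was near zero in budding organoids and high in both spheroid lines. The difference between spheroids and budding organoids therefore chose them, and values for it are given as a description without a test. Caveolae are small flask-shaped pits of the plasma membrane. Caveolins, the integral membrane proteins, oligomerize in the inner leaflet, cavins coat them from the cytosol, and the ATPase EHD2 sits at the neck and holds the pit at the surface. Caveolae are best known from endothelium, fat and muscle, where they flatten under membrane tension, and in the gut wall from smooth muscle and vessels.

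Poly-A RNA of 15 libraries was sequenced, 3 for each of 5 conditions, which the study describes as biological triplicates. All organoids came from crypts of adult female mice bred with C57BL/6J and had stably received a lentiviral transgene driven by the L30 promoter and followed by IRES Puro. The paper used wild-type C57BL/6J and LGR5::DTR-EGFP mice. It names the wild-type background for the SOX9 lines that were transduced a second time, and does not state it for the sequenced Halo-NLS organoids. The control, Halo-NLS, expressed V5-tagged HaloTag with a nuclear localization signal. SOX9-mEGFP_budding expressed Sox9-mEGFP-V5 and SOX9-Halo_budding expressed Sox9-Halo-V5. SOX9-mEGFP_spheroid additionally carried H2B-mScarletI with IRES Neo, and SOX9-Halo_spheroid additionally carried H2B-mEGFP with IRES Zeo. Both spheroid lines were at a later passage than their budding counterparts, so that shape, passage and the second transgene cannot be told apart. The study orders all 5 conditions by passage and by degree of spheroid shape. Lines compared with each other or with Halo-NLS may thus also differ in passage, and the spheroid lines differ in the second transgene too. These cannot be told apart from the line. Each tag stands for 1 transduced line, and p-values measure the spread between cultures of a line, not between lines. Reads counted on genes ran from 28062722 to 40559766 per library (median 33491297).

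The transgene was checked first by the Sox9 count, in which endogenous and transgenic transcripts cannot be separated. Sox9 stood at 15.3, 22.9 and 9.10 CPM in Halo-NLS replicates 1, 2 and 3, where CPM is the read count scaled to library size with TMM. In SOX9-mEGFP_budding it was 339, 330 and 193 CPM, and in SOX9-Halo_budding 39.8, 314 and 204 CPM. In SOX9-mEGFP_spheroid it was 260, 504 and 705 CPM, and in SOX9-Halo_spheroid 314, 442 and 441 CPM. Every SOX9 library lay above every Halo-NLS library, and SOX9-Halo_budding replicate 1 stood apart as the lowest of them.

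Of the 7 genes, 6 passed the filter on low counts over all libraries. Over the 9 libraries that are not spheroids 2 passed, Cav2 and Cavin1, so the other 4 passed only through the spheroids, and Cavin3 only through SOX9-mEGFP_spheroid. Cav3, the caveolin of striated muscle (ENSMUSG00000062694, chr6:112436466-112449833 on the plus strand of GRCm39), had 0 counts in all 15 libraries, which allows up to 0.111 CPM in Halo-NLS and less in the other conditions (3 counts per library, counting error only). The other 6 were all detected in SOX9-mEGFP_spheroid, and 5 of them in SOX9-Halo_spheroid. Summed over the 7 genes, the level was 23.9 ± 12.7 CPM in Halo-NLS (SD, n = 3 here and throughout), 11.7 ± 1.17 in SOX9-mEGFP_budding and 9.67 ± 2.68 in SOX9-Halo_budding, against 231 ± 17.4 in SOX9-mEGFP_spheroid and 221 ± 15.2 in SOX9-Halo_spheroid. In bulk samples, fewer cells that express a gene and less RNA per cell cannot be told apart. In the plot of CPM by library the spheroids form the upper group of points for every detected gene but Cavin3.

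**Figure D1:**
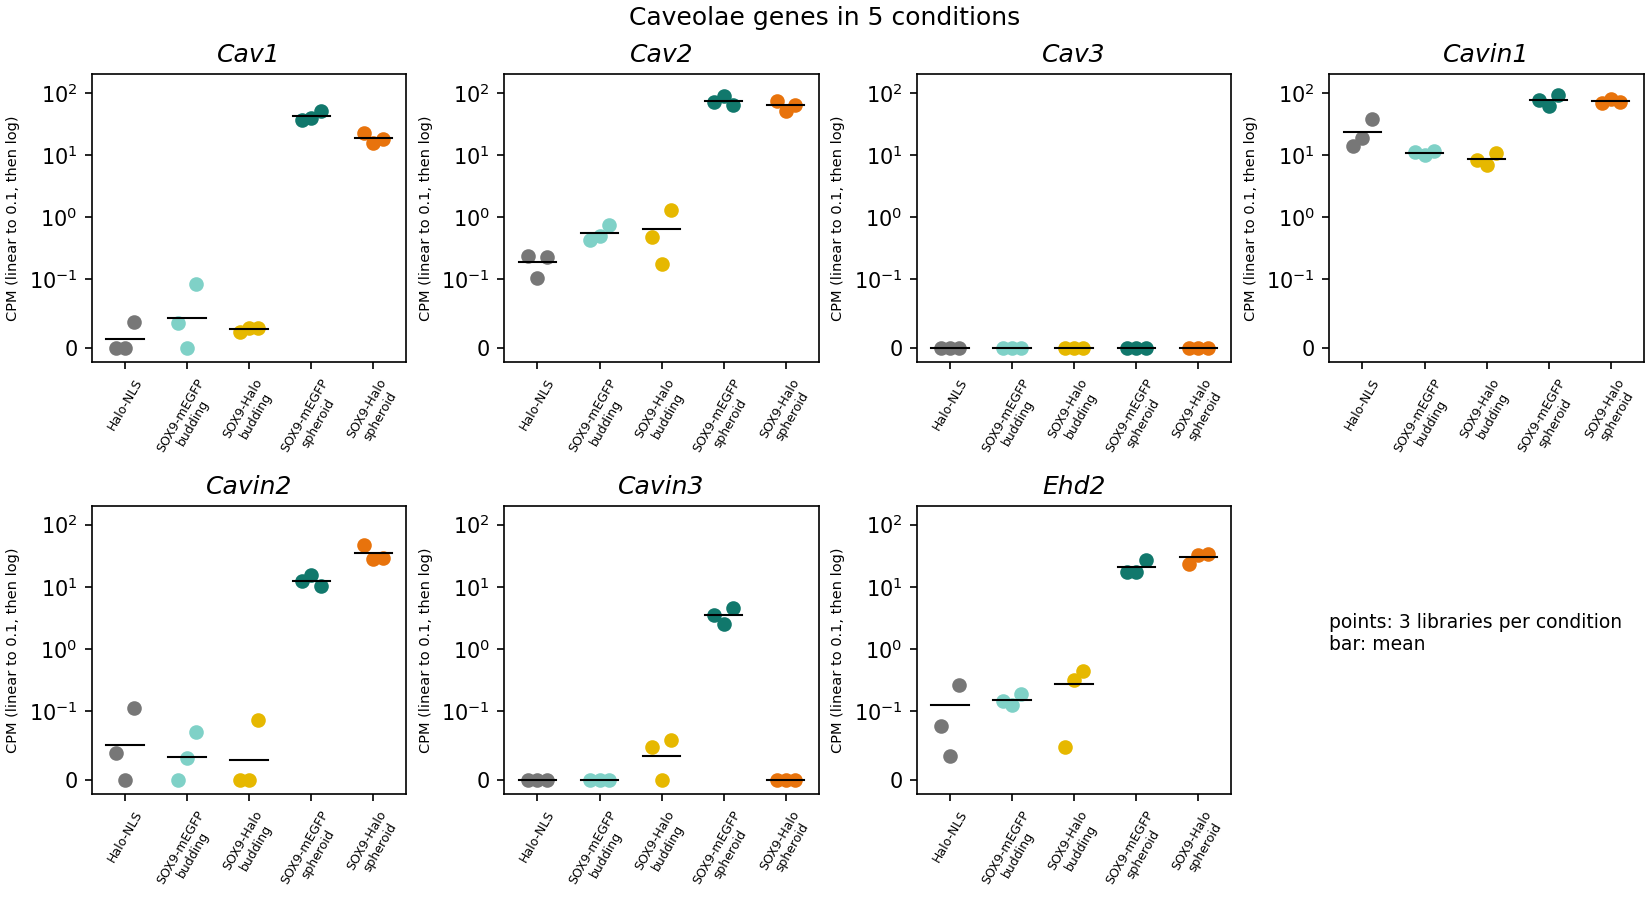
Level of each caveolae gene (CPM, axis linear up to 0.1 and logarithmic above) in the 3 libraries of each of 5 conditions, with a bar at the mean. Cav1, Cav2, Cavin1, Cavin2 and Ehd2 were higher in all 6 spheroid libraries than in all 9 others, Cavin3 was detected above the floor only in SOX9-mEGFP_spheroid, and Cav3 was at 0 everywhere.

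Cav2, a caveolin that forms hetero-oligomers with CAV1, is the gene by which the set was chosen. It stood at 0.234, 0.103 and 0.225 CPM in Halo-NLS, at 0.434, 0.495 and 0.743 CPM in SOX9-mEGFP_budding and at 0.474, 0.174 and 1.31 CPM in SOX9-Halo_budding. In SOX9-mEGFP_spheroid it reached 72.5, 88.8 and 65.1 CPM, and in SOX9-Halo_spheroid 75.2, 51.7 and 63.8 CPM. The spheroid libraries thus lay far outside the range of the other 9. The ratio of mean CPM, spheroid over budding, was 135 in the SOX9-mEGFP line and 97.5 in the SOX9-Halo line, on 60 and 71 reads summed over the budding libraries. The 95% counting intervals, which cover counting error only, ran from 100.2 to 169 and from 77.7 to 126. Without SOX9-Halo_budding replicate 3, the highest of its condition, the log2 ratio in the SOX9-Halo line was 7.62 in place of 6.61.

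Cav1, the caveolin on which caveolae of non-muscle cells depend, averaged at or under the floor of 3 counts per library in all 3 conditions of budding organoids. Its reads summed to 1 in Halo-NLS, 5 in SOX9-mEGFP_budding and 3 in SOX9-Halo_budding. In SOX9-mEGFP_spheroid it stood at 36.0, 39.4 and 50.9 CPM (4475 reads) and in SOX9-Halo_spheroid at 22.4, 15.6 and 17.8 CPM (1850 reads). The ratio of mean CPM to the budding counterpart was 979 in the SOX9-mEGFP line, with a counting interval of 371 to 2667 around the pooled ratio of 865. In the SOX9-Halo line it was 682, with a counting interval of 231.5 to 3289. On the log2 scale the SOX9-mEGFP ratio of 9.94 was 9.35 without SOX9-mEGFP_budding replicate 2 and 11.18 without replicate 3.

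Both caveolin genes are neighbours on the plus strand of chromosome 6 in GRCm39. Cav2 (ENSMUSG00000000058, chr6:17281026-17289877) ends 16262 bases before Cav1 begins (ENSMUSG00000007655, chr6:17306140-17341451). The 250 bases before the canonical GENCODE M39 start of each are shown because both were near zero in budding organoids and high in spheroids, in lower case with a match to the AP-1 motif TGANTCA in capitals. The windows are chr6:17280934-17281183 for Cav2 and chr6:17305890-17306139 for Cav1, both on the plus strand. Another annotated Cav2 transcript starts inside the first window.
Cav2: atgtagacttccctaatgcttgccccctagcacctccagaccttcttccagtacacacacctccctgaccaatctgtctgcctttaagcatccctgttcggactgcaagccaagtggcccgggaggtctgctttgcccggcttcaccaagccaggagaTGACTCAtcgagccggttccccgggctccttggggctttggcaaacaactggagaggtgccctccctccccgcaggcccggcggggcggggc
Cav1: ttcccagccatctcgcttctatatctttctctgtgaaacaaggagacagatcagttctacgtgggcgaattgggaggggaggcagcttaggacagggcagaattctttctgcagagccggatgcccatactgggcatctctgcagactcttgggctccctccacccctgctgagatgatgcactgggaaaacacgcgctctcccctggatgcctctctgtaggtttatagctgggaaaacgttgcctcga
The Cav2 window held the AP-1 letters once, 92 bases before the start, and 6.18% of the 21757 promoter windows of protein-coding genes held them on either strand. Neither window held GGAATG, the letters bound by TEAD factors (12.1% of windows), nor the SOX cores ACAAAG (15.9%) and ACAATG (9.41%). CG dinucleotides numbered 10 in the Cav2 and 8 in the Cav1 window, against a median of 8 over all windows. Among the windows of the other genes, Ehd2 held ACAAAG once, 246 bases before its start, Cavin3 held GGAATG, and Cav3, Cavin1 and Cavin2 held none of the 4 motifs. A match describes letters and not a bound site.

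Among the 15 annotated genes within 300 kb of the pair, 4 code for proteins, namely Tes, Cav2, Cav1 and Met. Tes, a LIM-domain protein of focal adhesions that lies upstream, was expressed in all conditions, at 142 ± 23.3 CPM in Halo-NLS, 148 ± 14.5 in SOX9-mEGFP_budding, 159 ± 20.5 in SOX9-Halo_budding, 136 ± 14.1 in SOX9-mEGFP_spheroid and 84.1 ± 21.5 in SOX9-Halo_spheroid. Met, the receptor of hepatocyte growth factor downstream of Cav1, was at 7.38 ± 5.16, 21.3 ± 6.11, 25.9 ± 10.4, 63.5 ± 11.4 and 44.4 ± 0.963 CPM in the same order. The near-zero level of the caveolins in budding organoids was therefore not shared by their protein-coding neighbours. Met did share their direction, being higher without overlap in both spheroid lines than in their budding counterparts and Halo-NLS. It was also 1.53 and 1.81 higher on the log2 scale in SOX9-mEGFP_budding and SOX9-Halo_budding than in Halo-NLS. Neither passed in edgeR (adjusted p = 0.0253 and 0.0107), while DESeq2 called both. Of the 6 genes in this window that were tested between the spheroid lines, edgeR called 0 (13.2% of all genes tested) and DESeq2 1, Cav1, with 2 at an unadjusted p below 0.05, Cav1 (edgeR adjusted p = 0.0131) and Tes (0.0224).

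Cavin1 (ENSMUSG00000004044, chr11:100847559-100861713, minus strand), the cavin without which caveolae do not form, was the exception among the detected genes in its level in budding organoids, with no library under 6.84 CPM. It stood at 14.1, 18.7 and 37.7 CPM in Halo-NLS, at 11.2, 9.84 and 11.7 CPM in SOX9-mEGFP_budding and at 8.44, 6.84 and 10.7 CPM in SOX9-Halo_budding. The spheroids held 75.6, 62.5 and 93.3 CPM in the SOX9-mEGFP line and 69.9, 80.3 and 72.8 CPM in the SOX9-Halo line. Cavin1 made up nearly the whole caveolae sum in budding organoids, and its ratio of spheroid to budding, 7.07 and 8.58, was the smallest of the detected genes with a ratio in both lines. Against Halo-NLS the ratios were 3.28 and 3.16.

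Cavin2 (ENSMUSG00000045954, chr1:51328266-51345710, plus strand), a cavin that helps to bend the membrane, had 4 reads in Halo-NLS, 4 in SOX9-mEGFP_budding and 3 in SOX9-Halo_budding. It stood at 12.3, 15.3 and 10.2 CPM in SOX9-mEGFP_spheroid and at 46.8, 27.9 and 28.7 CPM in SOX9-Halo_spheroid. The ratio to budding was 376 in the SOX9-mEGFP line (counting interval 126 to 1188 around a pooled ratio of 323) and 1186 in the SOX9-Halo line (424 to 6020 around 1241). On the log2 scale the first, 8.55, was 7.97 without SOX9-mEGFP_budding replicate 1 and 9.67 without replicate 3, and the second, 10.21, was 9.63 without SOX9-Halo_budding replicate 1 or 2. All 3 reads of SOX9-Halo_budding were in replicate 3, without which there is no ratio. Ehd2 (ENSMUSG00000074364, chr7:15680874-15701629, minus strand) had 10, 16 and 28 reads in Halo-NLS, SOX9-mEGFP_budding and SOX9-Halo_budding. It stood at 17.4, 17.3 and 26.7 CPM in SOX9-mEGFP_spheroid and 23.7, 33.0 and 34.3 CPM in SOX9-Halo_spheroid, with ratios to budding of 135 (80.9 to 231) and 113 (84.5 to 184). Neither gene had an intermediate library, since all 9 budding libraries lay below all 6 spheroid libraries.

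Cavin3 (ENSMUSG00000037060, chr7:105128391-105131507, minus strand), a cavin that also binds protein kinase C delta, differed from the rest. In SOX9-mEGFP_spheroid it stood at 3.52, 2.51 and 4.57 CPM, from 133, 84 and 161 reads. It had 0 reads in all libraries of SOX9-Halo_spheroid, SOX9-mEGFP_budding and Halo-NLS, and 2, 0 and 2 reads in SOX9-Halo_budding. SOX9-mEGFP_spheroid was thus at least 39.1-fold higher than its budding counterpart and at least 31.9-fold higher than Halo-NLS, against a floor of 3 counts per library, and no fold is given for the SOX9-Halo line, in which both conditions were at or under this floor.

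Counted over the set, 6 of the 7 genes had no overlap and were higher in SOX9-mEGFP_spheroid than in SOX9-mEGFP_budding (23.9% of the 17560 genes tested did so), and 5 of 7 in SOX9-Halo_spheroid against SOX9-Halo_budding (24.6%). Against Halo-NLS the counts were 6 for the SOX9-mEGFP spheroids (29.5%) and 5 for the SOX9-Halo spheroids (26.5%). In these 4 comparisons 0 genes of the set were lower without overlap, beside 22.1%, 28.2%, 27% and 28.4% of all genes tested. These comparisons share the spheroid libraries and the choice of genes used them, so nothing is read from the counts.

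Among the budding organoids, whose differences from one another the choice of genes did not use, the conditions were tested with edgeR's quasi-likelihood test over all genes, called at an adjusted p of at most 0.01 and at least a 2-fold change. Cavin1 fell in SOX9-Halo_budding relative to Halo-NLS, by 1.44 on the log2 scale (SE 0.31, edgeR adjusted p = 0.00882), with all 3 libraries below all 3 controls. It was the 1 gene of the set called there, where 3.75% of all genes tested were called and 1.26% were called lower. Halo-NLS replicate 3 was the highest Cavin1 library and also the one with the most genes detected (40375), and without it the change was -0.92 with an edgeR adjusted p of 0.0295. The call was also lost without Halo-NLS replicate 2 (adjusted p = 0.0162) and without SOX9-Halo_budding replicates 1 (0.0308), 2 (0.0183) and 3 (0.0193), so of the 6 libraries it held only without Halo-NLS replicate 1. It was lost as well with library sizes alone (adjusted p = 0.0237) and with only the conditions compared in the fit (-1.41, adjusted p = 0.12). In SOX9-mEGFP_budding the Cavin1 change was -1.11 (SE 0.30, edgeR adjusted p = 0.0298), which did not pass. In Halo-NLS replicate 3, 5.7% of reads fell on no annotated feature, against 2.9% and 1.8% in replicates 1 and 2. Fibroblast markers were lower with Cavin1, summing to 0.899 CPM in SOX9-Halo_budding against 2.16 CPM in Halo-NLS. Of these, Pdgfrb stood at 0.564 against 1.40 CPM with no overlap, and its part in the result was not tested.

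In SOX9-mEGFP_budding against Halo-NLS, 0 genes of the set were called by edgeR (2.76% of all genes tested), 2 had an unadjusted p below 0.05 (Cavin1, and Cav2, whose values are a description) and DESeq2 called 1, Cavin1. The Cav2 value was 1.60 above Halo-NLS on the log2 scale in SOX9-mEGFP_budding (SE 0.60), with the 3 libraries above the 3 controls. In SOX9-Halo_budding its value was 1.79 above Halo-NLS (SE 0.59), with overlapping libraries, and 0.85 to 2.23 when each library was left out, the lowest without SOX9-Halo_budding replicate 3. Both Cav2 values rest on 15 reads in Halo-NLS. Its low level in budding organoids chose the set, and without the spheroids it passed the filter only through SOX9-mEGFP_budding, so no p is given for it, nor for Ehd2, Cav1, Cavin2 and Cavin3, which did not pass the filter among budding organoids alone. Between the budding lines edgeR called 0 genes of the set (0.456% of all genes tested) and DESeq2 none, and 1 had an unadjusted p below 0.05, Cavin3, at or under the floor in both.

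The spheroid lines were then compared with each other. Of the set, 1 gene was called (13.2% of all genes tested, 9.58% lower and 3.59% higher in SOX9-Halo_spheroid), and it was Cavin3. Cavin3 was at least 39.1-fold lower in SOX9-Halo_spheroid, on 0 reads against 378. Having passed the filter only through SOX9-mEGFP_spheroid, where it is high, it had to differ, so its call is a description, no p is given and the count of 1 supports nothing. Cav1 was also lower in SOX9-Halo_spheroid, with a log2 fold change of -1.18 (SE 0.32) and no overlap between the lines, but its edgeR adjusted p of 0.0131 missed the threshold. Cavin2 was 1.45 higher on the log2 scale (SE 0.44), again with no overlap, at an edgeR adjusted p of 0.0246. Both were called with DESeq2, with no low-count filter and with only the conditions compared. With the replicate block Cav1 was called (edgeR adjusted p = 0.00929) and Cavin2 was not (0.0253). Neither was called when any library was left out.

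Ehd2 (0.57, SE 0.42, edgeR adjusted p = 0.374) and Cavin1 (-0.05, SE 0.30, edgeR adjusted p = 0.922) did not pass. The Cav2 value (-0.25, SE 0.40) is a description without a p, since its high level in both spheroid lines chose the set. The libraries of both lines overlapped for all 3 genes. An interaction asked whether the budding-to-spheroid difference itself was unequal in the lines, and 1 gene of the set was called (7.39% of all genes tested), again Cavin3, to which the same applies. In the SOX9-Halo line it contrasts 4 reads with 0, both under the floor, and the call was lost without SOX9-Halo_budding replicate 1 or 3, the libraries with 2 reads each. For the other genes no p of the interaction is given, since the difference it compares chose them.

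**Figure D2:**
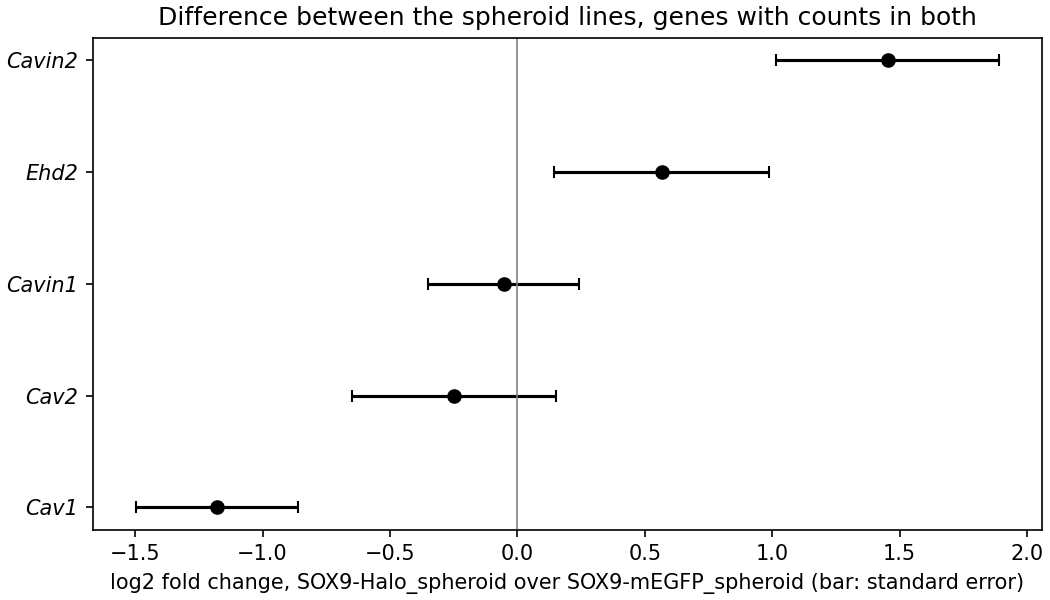
Log2 fold change of 5 caveolae genes in SOX9-Halo_spheroid over SOX9-mEGFP_spheroid from edgeR (points) with its standard error (bars), n = 3 libraries a line. Cavin2 (1.45) lay to the right of 0, Cav1 (-1.18) to the left, and Ehd2, Cav2 and Cavin1 lay between 0.57 and -0.25. Cavin3, with 0 reads in SOX9-Halo_spheroid, has no finite ratio and is not drawn.

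The promoter window of Cavin3, chr7:105131508-105131757 on the minus strand of GRCm39, is shown because this gene differed between the spheroid lines, with its GGAATG match, which reads CATTCC on the strand of the gene, in capitals.
Cavin3: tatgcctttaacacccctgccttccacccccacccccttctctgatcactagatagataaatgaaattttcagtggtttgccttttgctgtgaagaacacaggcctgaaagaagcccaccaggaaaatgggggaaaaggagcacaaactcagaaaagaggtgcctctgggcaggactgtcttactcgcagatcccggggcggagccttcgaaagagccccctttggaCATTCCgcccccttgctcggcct
The match lay 23 bases before the start, and 12.1% of windows held one. No AP-1 or SOX core letters were found in this window, which has 6 CG dinucleotides. The neighbours of Cavin3 were looked at after its values were seen. Of the 37 annotated genes within 300 kb, 12 were tested between the spheroid lines and edgeR called 1, Cavin3 itself (13.2% of all genes tested). Arfip2, which encodes a BAR-domain protein, stood at 107 ± 7.28 CPM in SOX9-mEGFP_spheroid and 104 ± 8.91 CPM in SOX9-Halo_spheroid. Tpp1, a lysosomal peptidase, stood at 80.0 ± 15.1 and 79.4 ± 8.01 CPM, and Smpd1, the acid sphingomyelinase, at 21.8 ± 1.62 and 16.3 ± 1.76 CPM. Taf10, a subunit of the general factor TFIID, stood at 83.9 ± 3.41 and 91.7 ± 7.80 CPM. Other neighbours differed more without being called. Fhip1b stood at 73.0 ± 2.71 and 39.4 ± 2.56 CPM (log2 fold change -0.89, edgeR adjusted p = 0.0022, under the 2-fold limit). Rrp8, a nucleolar protein, was higher in SOX9-Halo_spheroid by 0.81 on the log2 scale (edgeR adjusted p = 0.0175), and Apbb1 by 1.86 at levels under 1 CPM (edgeR adjusted p = 0.0383).

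Levels of different genes were compared per kilobase of exon. In SOX9-mEGFP_spheroid the order was Cav2 (17.6 ± 2.83 CPM per kb), Cavin1 (14.5 ± 2.90), Cav1 (8.43 ± 1.57), Ehd2 (3.23 ± 0.856), Cavin2 (1.83 ± 0.373) and Cavin3 (1.15 ± 0.336). In SOX9-Halo_spheroid it was Cav2 (14.8 ± 2.74), Cavin1 (13.95 ± 1.01), Cavin2 (5.01 ± 1.55), Ehd2 (4.78 ± 0.911) and Cav1 (3.72 ± 0.696). Cav2 and Cavin1 led in both lines, and their libraries overlapped within each line. Cav1 came next with no overlap to its neighbours in the SOX9-mEGFP line, whereas Cavin2, Ehd2 and Cav1 overlapped in the SOX9-Halo line.

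**Figure D3:**
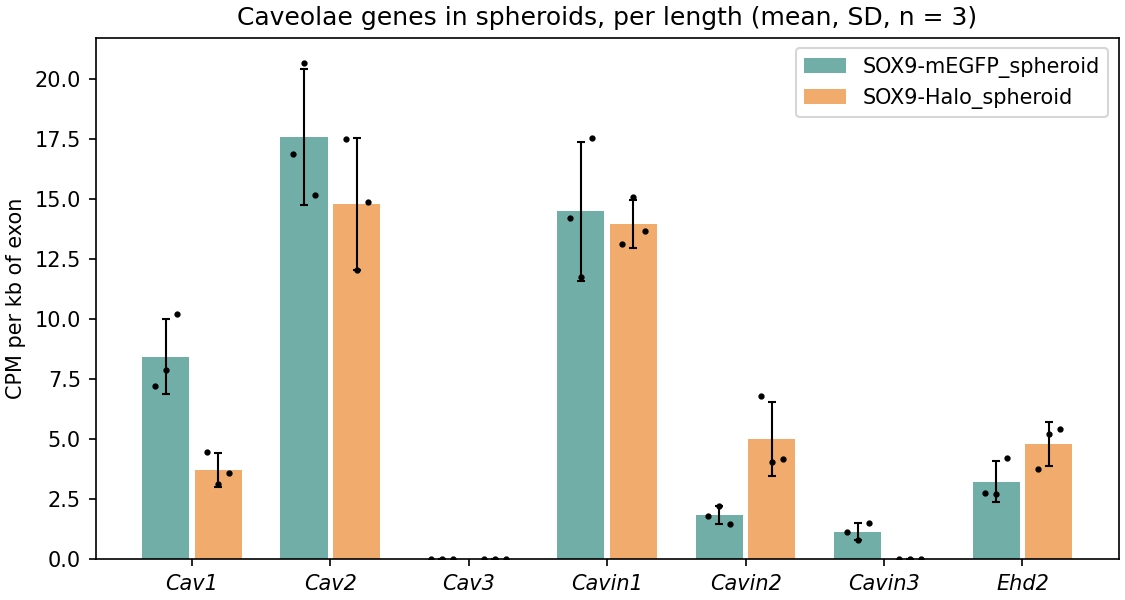
Level per length (CPM per kilobase of exon) of each caveolae gene in the spheroid lines, with bars at the mean of 3 libraries, error bars of 1 SD and points for the libraries. Cav2 and Cavin1 led in both lines, Cav1 was 8.43 against 3.72, and Cavin2 was 1.83 against 5.01.

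Ratios taken within a library do not depend on its scaling. The Cav2 to Cav1 ratio per length was 2.34, 2.62 and 1.49 in SOX9-mEGFP_spheroid and 3.91, 3.86 and 4.16 in SOX9-Halo_spheroid. The Cavin2 to Cav1 ratio was 0.248, 0.282 and 0.145 in the former and 1.52, 1.30 and 1.17 in the latter. Neither ratio overlapped between the lines, and both are given as a description. With 3 against 3 libraries a two-sided exact permutation test can give no p under 0.1, so it could not pass. The high level of Cav2 in both spheroid lines also chose the set. The Cavin1 to Cav1 ratio was 1.73 ± 0.240 against 3.86 ± 0.955. The sum over the 7 genes was 231 against 221 CPM.

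Across the 15 libraries, log2 CPM of Cav1 and Cav2 correlated at r = 0.982, of Cav2 and Cavin2 at 0.975 and of Cavin2 and Ehd2 at 0.983. Cavin3 correlated with the other 5 at 0.477 to 0.648. These values describe libraries that fall into a budding and a spheroid group, which the choice of genes used. Over 11053 genes of at least 100 mean normalized counts, the 5 most like Cav1 were Col18a1 (r = 0.997), Gm32219, Capn2, Cpne8 and Vamp5 (r = 0.992). Col18a1, a basement membrane collagen, stood at 1.78 ± 0.937 CPM in Halo-NLS, 360 ± 93.2 in SOX9-mEGFP_spheroid and 252 ± 8.42 in SOX9-Halo_spheroid. The 5 most like Cav2 were Anxa3 (r = 0.995), Ano1, Tspan2, Clu and Vsig1 (r = 0.988). Clu, a secreted chaperone, stood at 8.77 ± 6.06, 4451 ± 548 and 2162 ± 320 CPM in these conditions, and Anxa3, a membrane-binding annexin, at 5.42 ± 0.902, 347 ± 42.4 and 327 ± 47.8 CPM.

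Genes that act with caveolae were followed as a list of 12 neck and partner genes (dynamins, other EHD proteins, pacsins, filamin A, Src and Cavin4), of which 10 were tested. Without overlap, 6 were higher and 3 lower in SOX9-mEGFP_spheroid than in SOX9-mEGFP_budding (23.9% and 22.1% of all genes tested), and in the SOX9-Halo line the counts were 5 and 3 (24.6% and 28.2%), again as a description. The list medians were 0.63 and 0.39 on the log2 scale, beside -0.04 and -0.08 over all genes tested. Against Halo-NLS the counts were 5 higher and 2 lower in SOX9-mEGFP_spheroid (29.5% and 27% of all genes tested) with a median of 0.68, and 4 and 4 in SOX9-Halo_spheroid (26.5% and 28.4%) with a median of -0.50, beside 0.03 and -0.01 over all genes tested. Pacsin2, an F-BAR protein of the caveolar neck, stood at 102 CPM in Halo-NLS, 164 and 114 CPM in SOX9-mEGFP_budding and SOX9-Halo_budding, and 233 and 175 CPM in the SOX9-mEGFP and SOX9-Halo spheroids. Filamin A (Flna), which links caveolae to stress fibres and was named after its values were seen, stood at 54.6, 39.8, 41.0, 149 and 251 CPM in the same order. Of the 10, 3 were called between the spheroid lines (13.2% of all genes tested). Ehd1, an EHD protein of endocytic recycling, was higher in SOX9-Halo_spheroid by 1.32 on the log2 scale (edgeR adjusted p = 0.000309), and Dnm1 and Dnm3, both dynamins, changed by -3.48 and -4.33. The same 3 were called in the interaction (7.39% of all genes tested), Ehd1 at 1.68, Dnm1 at -3.61 and Dnm3 at -3.82. Dnm2, the ubiquitous dynamin, stood at 254 and 157 CPM in the spheroid lines and was not called. Ehd1 also fell in both budding lines relative to Halo-NLS, by 1.25 and 1.61 on the log2 scale (edgeR adjusted p = 0.00267 and 0.000601).

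Other membrane coats were read beside these. Of 8 genes of the clathrin coat and its AP2 adaptor, 8 were tested and edgeR called 0 in each of the 5 tested comparisons (2.76%, 3.75%, 0.456%, 13.2% and 7.39% of all genes tested). The unadjusted p was below 0.05 for 4 of them in SOX9-mEGFP_budding and 6 in SOX9-Halo_budding against Halo-NLS, 0 between the budding lines, 1 between the spheroid lines and 0 in the interaction. Cltc, the clathrin heavy chain, was 1.71 higher on the log2 scale in both budding lines than in Halo-NLS (edgeR adjusted p = 0.0208 and 0.0168). Its Halo-NLS libraries ran from 44.6 to 226 CPM. It was the 1 gene of this list that DESeq2 called in these comparisons with Halo-NLS. Of 5 flat raft scaffold genes, 4 were tested and neither edgeR nor DESeq2 called any between the spheroid lines (13.2% of all genes tested), with 3 at an unadjusted p below 0.05, while Flot2, a flotillin, was the 1 of the 4 called in each budding line against Halo-NLS (2.76% and 3.75% of all genes tested), lower at 13.4 and 13.6 CPM against 38.2 CPM (log2 fold changes of -1.51 and -1.49, edgeR adjusted p = 0.000838 and 0.00113). In the spheroids Flot2 stood at 31.0 and 50.0 CPM. The fits that left out single libraries were read for the caveolae genes alone, and not for Ehd1, Cltc or Flot2.

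Cell types rich in caveolae were looked for by their markers. The 8 endothelial markers summed to 2.30 CPM in Halo-NLS, 1.45 in SOX9-mEGFP_spheroid and 1.03 in SOX9-Halo_spheroid, and in each spheroid line 6 of the 8, Cdh5, Pecam1 and Kdr among them, were at or under the floor. Plvap went the other way in SOX9-Halo_spheroid, at 0.478 ± 0.0787 CPM against 0.160 ± 0.0800 in Halo-NLS with no overlap, though at 0.925 ± 0.445 in SOX9-Halo_budding, and its part in the result was not tested. The 8 fibroblast markers summed to 2.16, 0.405 and 0.860 CPM in these conditions, with Dcn and Lum at 0 in the spheroids. The Halo-NLS sum was mostly Pdgfrb, at 1.40 CPM. In SOX9-mEGFP_budding and SOX9-Halo_budding the fibroblast sums were 1.11 and 0.899 CPM, the latter close to that of SOX9-Halo_spheroid. Col1a1, the most abundant in the spheroids, was higher there with the caveolae genes and with no overlap to the budding counterparts, at 0.303 against 0.128 CPM in the SOX9-mEGFP line and 0.632 against 0.122 CPM in the SOX9-Halo line, and its part in the result was not tested. The 6 smooth muscle markers summed to 0.460, 0.457 and 1.79 CPM. In SOX9-Halo_spheroid 1.34 CPM of this was Des, and Actg2 was at 0 in both spheroid lines. Des was higher there with the caveolae genes, with no overlap to SOX9-Halo_budding (0.0158 CPM) or Halo-NLS (0.113 CPM). It was also called higher than in SOX9-mEGFP_spheroid (0.0904 CPM), as 3.59% of all genes tested were. Outside SOX9-Halo_spheroid no library exceeded 0.262 CPM, so Des passed the filter only through SOX9-Halo_spheroid, where it is high. Its call is thus a description, and its part in the result was not tested. The 5 adipocyte markers summed to 26.5, 20.01 and 0.701 CPM, led by Cidec, which made up 19.99 CPM in SOX9-mEGFP_spheroid and 0.516 CPM beside 0.185 CPM of Fabp4 in SOX9-Halo_spheroid, with Adipoq, Plin1 and Lep at 0 in both spheroid lines. The 6 striated muscle markers summed to 27.6, 2.17 and 0.159 CPM, led by Acta1, with Myod1 and Myog at 0 in the spheroids. The 6 immune markers summed to 1.96, 5.03 and 5.04 CPM, higher where the caveolae genes were higher. Cd68, which macrophages share with other cells rich in lysosomes, made up 4.85 and 4.94 CPM of the spheroid sums, and its part in the result was not tested. Cd3e, Cd79a, Lyz2 and Adgre1 were at or under the floor in both lines. Ptprc was at 0 in SOX9-Halo_spheroid, but above the floor in SOX9-mEGFP_spheroid, at 0.094 CPM (10 reads). It was at 0.0198 CPM in SOX9-mEGFP_budding and 0.212 CPM in Halo-NLS. In SOX9-mEGFP_budding and SOX9-Halo_budding the sums were 2.09 and 2.015 CPM (endothelial), 0.340 and 0.425 (smooth muscle) and 17.55 and 17.4 (adipocyte). For striated muscle they were 10.3 and 23.8 CPM, and for immune markers 2.41 and 1.84 CPM.

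Epithelial identity was read from 7 general markers, which summed to 7577 CPM in Halo-NLS, 7142 in SOX9-mEGFP_budding, 5506 in SOX9-Halo_budding, 11250 in SOX9-mEGFP_spheroid and 6476 in SOX9-Halo_spheroid. Krt8 was the most abundant in all 5 conditions. Single markers went in opposite directions in SOX9-Halo_spheroid, where Epcam stood at 461 CPM against 993 in Halo-NLS and Cldn7 at 339.5 against 1241 CPM, while Krt18 stood at 1558 against 520.0 CPM. Cldn3 had 0 counts in every library, in an annotation where an antisense gene lies across it and shared reads were not counted. The 9 intestinal markers summed to 3955, 2783, 2536, 959 and 131.5 CPM in the same order, with Vil1 the most abundant. In SOX9-Halo_spheroid Chga and Fabp2 were at or under the floor. Lgr5 went the other way in SOX9-mEGFP_spheroid, at 45.8 ± 16.8 CPM against 11.5 ± 0.623 in Halo-NLS with no overlap. It stood at 33.4 ± 33.4 CPM in SOX9-mEGFP_budding. Without overlap, 1 of the 9 was higher and 7 lower in SOX9-mEGFP_spheroid than in Halo-NLS (29.5% and 27% of all genes tested). The sum of intestinal markers was thus lowest where the caveolae sum was high, and the part of this in the result was not tested.

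**Figure D4:**
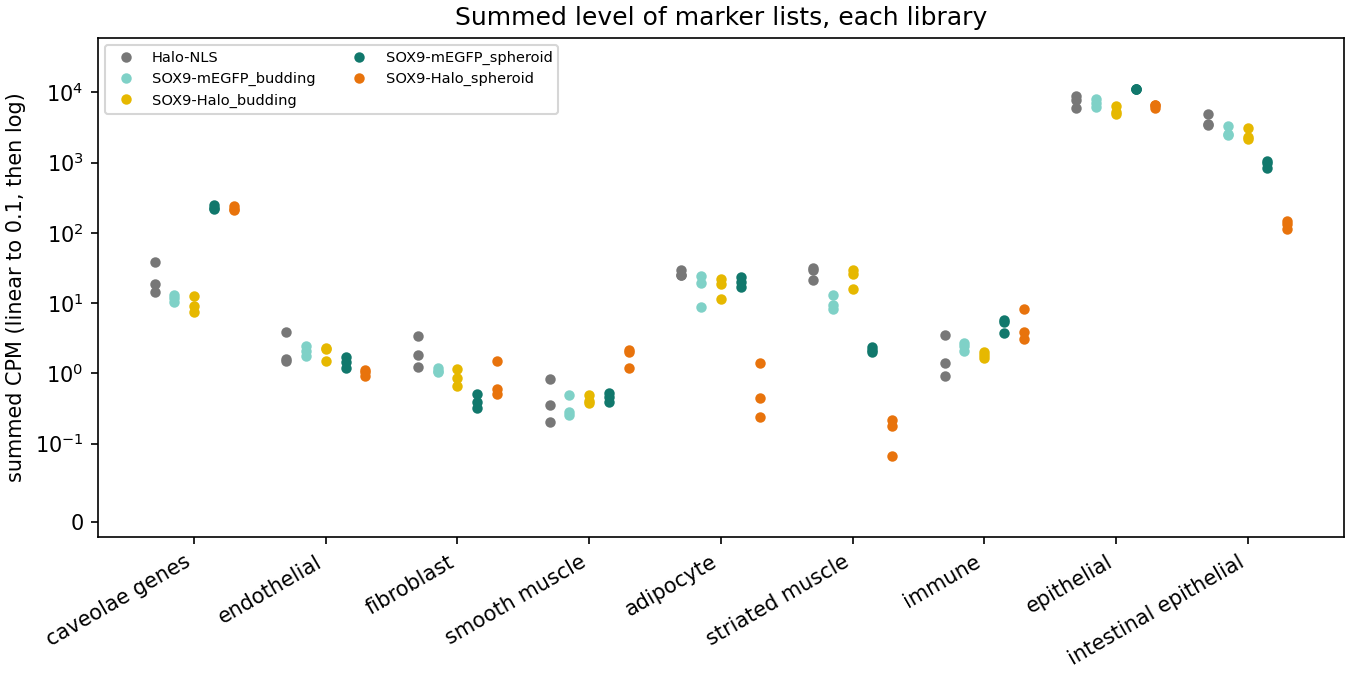
Summed level (CPM, axis linear up to 0.1 and logarithmic above) of the caveolae genes and of 8 marker lists in each of 15 libraries. The caveolae sum was 23.9 in Halo-NLS and 231 and 221 in the spheroid lines, while the endothelial sum was 2.30, 1.45 and 1.03.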

How the data were processed

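Poly-A RNA-seq of 15 libraries was used. The authors trimmed the reads with cutadapt 4.5, aligned them to mm39 (GRCm39) with STAR, kept unique alignments and counted them with HTSeq 2.0.2 in union mode without strand, and deposited whole-number counts per gene that were not normalized. Reads on more than 1 gene (9.65% to 13.6%) were not counted. All members but Cav3 and Ehd2 share exon bases with an antisense gene, at most 898 bases (Cavin1). The deposited normalized table and comparison tables, which hold the authors' fold changes and p-values, were not used. Genes passing filterByExpr by condition (17560) were scaled with TMM and fitted in 1 quasi-likelihood model (edgeR 4.0.16, R 4.3.3). Called genes had a Benjamini-Hochberg adjusted p up to 0.01, a log2 fold change of 1 or more in either direction and 10 or more normalized counts on average. SE is the absolute log2 fold change over the square root of F. Intervals are exact and 95%. Exon lengths and positions are from GENCODE M39. The fit was tested on simulated data. Named were the members, Sox9, some neighbours within 300 kb, the 5 genes most like Cav1 and Cav2, and others where stated. Some genes of each list were named without a fixed rule. Clathrin and raft genes, and Ehd1, Dnm1, Dnm3 and Flot2, were named for their calls. The members and lists were chosen with earlier results of these data known. Library sizes alone, no filter, DESeq2 1.42.0, a replicate block, only the conditions compared and leaving out each library were tried. Deviations of same-numbered libraries all correlated above 0.1 only between SOX9-Halo_budding and SOX9-Halo_spheroid (r = 0.403, 0.234 and 0.344), which enter the interaction together. Single numbers correlated more strongly elsewhere, at r = 0.470, 0.817 and -0.055 for Halo-NLS with SOX9-Halo_budding. Between the budding lines r was 0.040, 0.358 and 0.740. The labels do not say what a number shares, so these values do not settle in which comparisons libraries are paired.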

Additional observations from a re-analysis of the deposited data

Results flagged for a closer look

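Cavin3 was picked out because its difference between spheroid and budding organoids was unequal in the lines. The fitted interaction on the log2 scale was -13.30 (3 libraries a condition). It is no bound, and it is given as a description without a p, since Cavin3 passed the filter on low counts only through SOX9-mEGFP_spheroid, where it is high, and since SOX9-Halo_spheroid had 0 reads, beside 378 reads in SOX9-mEGFP_spheroid, 0 in SOX9-mEGFP_budding and 4 in SOX9-Halo_budding. All 3 SOX9-mEGFP_spheroid libraries lay above every other library.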

How the results depend on the processing

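The number of caveolae genes called moved under several alternatives, all of them planned, and the cause was not tested. For SOX9-Halo_budding against Halo-NLS (1 called) it was 0 with library sizes alone, 0 with only the conditions compared, 2 with no low-count filter and 0 to 1 leaving out each library, where the Cavin1 call held only without Halo-NLS replicate 1, and Cav2 was called in its place without SOX9-Halo_budding replicate 2. For SOX9-mEGFP_budding against Halo-NLS (0 called) it was 1 with no filter, 1 with DESeq2 and 0 to 1 leaving out each library. For the spheroid lines (1 called) it was 3 with no filter, 3 with only the conditions compared and 3 with DESeq2. With the replicate block it was 2, as Cav1 passed at an edgeR adjusted p of 0.00929, and the block changed no other call. For the interaction (1 called) it was 0 to 1, lost without SOX9-Halo_budding replicate 1 or 3. Values that changed sign when a library was left out were never called: Ehd2 in SOX9-mEGFP_budding against Halo-NLS (-0.14 to 1.43), Cav2 between the budding lines (-0.77 to 0.63), Cavin1 between the spheroid lines (-0.19 to 0.10), and the fitted interactions of Cav1 (-1.69 to 0.0399), Cav2 (-0.87 to 0.52) and Ehd2 (-0.71 to 0.39, and 0.03 without SOX9-mEGFP_spheroid replicate 3). DESeq2 called 1225, 1503 and 200 genes in the 3 budding comparisons, where edgeR called 484, 659 and 80. Between the spheroid lines it called 2616 genes and in the interaction 1714, where edgeR called 2313 and 1297. No share over all genes is given for the other settings, so nothing is read from their counts. Library sizes alone moved the median of all genes from 0.03 to 0.27 and from 0.01 to 0.31 in the comparisons of SOX9-mEGFP_budding and SOX9-Halo_budding with Halo-NLS. Depth limits all genes but Cavin1 in budding organoids, where they rest on at most 71 reads a condition.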
